A study of Mus musculus with 62 samples.

Results

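Interferon-stimulated genes are the genes that a cell switches on when it senses interferon. The 34 genes described here were listed by name from the well-known targets of type I interferon. Their rows were read from a raw count table of 37620 genes, in which all 34 were found by their gene symbols. They comprise 3 transcription factors (Irf7, Irf9 and Stat2), 4 sensors of foreign nucleic acid (Ddx58, Ifih1, Dhx58 and Zbp1), 3 IFIT proteins, 5 members of the oligoadenylate synthetase (OAS) family, 2 Mx GTPases, 2 genes of the ISG15 pathway, 8 other antiviral effectors and 7 further interferon-induced genes. Membership was not chosen on a measured value of these libraries, although the list was drawn up with earlier results of these data known.

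The study profiled total RNA from mouse bone marrow cells in 62 libraries. ER-Hoxb8 cells are bone marrow progenitors held in an immature, dividing state by a Hoxb8 protein fused to the hormone-binding part of the oestrogen receptor, so that removing the hormone lets them mature. Here 24 clones, numbered 1 to 13 and 15 to 25, were sequenced once as progenitors, labelled ER-Hoxb8 GMP cells, and once as monocytic ER-Hoxb8 cells. The labels give 1 culture recipe for both states, RPMI with serum, penicillin/streptomycin and SCF, and give neither the length of maturation nor the mouse strain. Each clone in each state is 1 library. The primary cells were sorted by flow cytometry from mouse bone marrow into classical, intermediate and nonclassical monocytes and into class 1, class 2, class 3 and class 4 monocytes, with 2 libraries a group. The labels used here give neither the sorting gates nor what defines a class. Separate mice or cultures are not named for the replicates either, so each p-value measures only the spread between these libraries, which may be technical.

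Type I interferons bind the Ifnar1 and Ifnar2 receptor chains, and the kinases Jak1 and Tyk2 then start the signal inside the cell. Stat2 and Irf9 act in a complex that binds the interferon-stimulated response element in the promoters of its target genes, and one of those targets, Irf7, drives further interferon production in a feed-forward loop. In myeloid cells a low tonic interferon signal is known to set a baseline level of many of these genes.

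The core of the response element was looked for in the promoters because the members moved together in several comparisons described further on. Of the 34 members, 25 had an entry in the RefSeq promoter table used (build GRCm38.p6, from 250 bases before to 50 bases after the transcription start). The core searched for was GAAA, any 2 bases and GAAA again, on either strand, and it occurred in 15 of the 25 members (60%), compared with 3.99% of the 27025 genes in the table. The core of the gamma-activated site, TTCNNNGAA, which reads the same on both strands, occurred in 7 of 25 members (28%) and in 9.55% of all genes. The following stretches show 8 of the 15 members with a response element core, on the strand of the gene and read 5′ to 3′, and were chosen to cover the IFIT, OAS and ISG15 families as well as Cxcl10, Rsad2 and Bst2. Capitals mark the bases that belong to a match of that core or of its reverse complement.
Isg15, chr4:156200850-156200921, minus strand: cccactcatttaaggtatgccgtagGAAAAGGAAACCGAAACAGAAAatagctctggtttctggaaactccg
Ifit1, chr19:34640760-34640838, plus strand: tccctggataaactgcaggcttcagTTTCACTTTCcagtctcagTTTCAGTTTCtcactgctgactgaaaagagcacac
Ifit3, chr19:34583348-34583441, plus strand: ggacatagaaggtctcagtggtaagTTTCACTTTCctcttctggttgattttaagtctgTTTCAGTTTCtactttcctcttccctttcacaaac
Oas3, chr5:120777700-120777759, minus strand: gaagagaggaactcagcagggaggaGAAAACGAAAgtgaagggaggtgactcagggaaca
Oas1a, chr5:120907526-120907570, minus strand: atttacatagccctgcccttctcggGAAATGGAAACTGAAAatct
Cxcl10, chr5:92349068-92349127, minus strand: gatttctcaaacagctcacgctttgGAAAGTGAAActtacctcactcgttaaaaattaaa
Rsad2, chr12:26456538-26456597, minus strand: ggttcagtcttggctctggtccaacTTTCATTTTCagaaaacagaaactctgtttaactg
Bst2, chr8:71537562-71537627, minus strand: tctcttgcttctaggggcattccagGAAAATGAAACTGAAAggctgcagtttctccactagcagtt

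Isg15 carried 3 overlapping matches in 1 run, Ifit1 and Ifit3 each carried 2 separate ones on the opposite strand, and Oas1a and Bst2 each carried 2 that overlap. In Ddx58, Eif2ak2, Ifih1 and Ifitm3 the first match began after the transcription start. Slfn5, Stat2 and Trim30a also held a match. The 10 members with a promoter entry and no match in the window were Ifi44, Ifit2, Irf7, Irf9, Isg20, Lgals3bp, Oasl1, Oasl2, Samhd1 and Xaf1. Rtp4, Pydc4, Mx2, Mx1, Oas2, Zbp1, Dhx58, Parp14 and Usp18 were not in the table.

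Depth, as total mega-counts (M) per library, was 12.6 to 47.3 M for the progenitors of clones 1 to 13 but 0.362 to 16.5 M for those of clones 15 to 25. The monocytic libraries held 22.9 to 34.5 M in the first run of clone numbers, 1.83 to 9.12 M in the second, and the primary libraries 21.2 to 35 M. The progenitor library of clone 21 was the shallowest, where 3 counts correspond to 6.56 CPM (counts scaled to library size, here with TMM factors, the usual counts per mega-count), so that a count of 0 there says little about a low gene. It is the only progenitor library at 0 for Irf7, Isg15, Oasl2, Rsad2, Usp18, Zbp1, Rtp4 and Slfn5; without it their lowest progenitor values run from 0.144 CPM for Zbp1 to 3.73 CPM for Rtp4. Summed markers of progenitors were 1950 to 4998 CPM in progenitor libraries and 88.2 to 1046 CPM in monocytic ones. Summed monocyte markers were 1253 to 3673 CPM in progenitors and 5026 to 62400 CPM in monocytic cells. The monocytic libraries also held neutrophil markers at 1541 to 197500 CPM, and class 4 held them at 52700 to 73870 CPM. In bulk RNA, fewer cells of a type and less RNA per cell cannot be told apart.

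Maturation from progenitor to monocytic cells raised nearly every member. Of the 34, 32 passed the filter on low counts among the clones, and 31 of these rose with none lower (edgeR quasi-likelihood test with clone as a block, Benjamini-Hochberg adjusted p under 0.05 over 11614 genes). Over all genes tested, 38.5% rose and 40.1% fell in the same comparison. The median log2 fold change was 2.67 over the tested members and -0.02 over all genes. Members that are almost silent in progenitors reach the filter through their monocytic libraries, and so the 25 members with a median of at least 10 counts in the progenitor libraries were also counted on their own: 24 of them rose, with a median log2 fold change of 2.36. The exception was Lgals3bp, a secreted glycoprotein, and the 2 members under the filter were Ifi44 and Pydc4.

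All 3 transcription factors rose. Irf7, the regulator that amplifies interferon production, was measured at 0 to 5.06 CPM in progenitors (median 2.08) and at 1.76 to 1941 CPM in monocytic cells (median 37.1). Every one of the 24 clones had more of it in the monocytic state, although the ranges overlap through clone 22. Its log2 fold change was 4.32 (SE 0.40, adjusted p = 1.04e-10). Stat2, the signal transducer, stood at 8.30 to 42.2 CPM (median 13) and 36.7 to 1214 CPM (median 74.4), also higher in 24 of 24 clones, with a log2 fold change of 2.36 (SE 0.24, adjusted p = 7.09e-10). Irf9, its DNA-binding partner, stood at 9.48 to 35.1 CPM (median 15.6) and 20.9 to 246 CPM (median 70.5), and was higher in 22 of 24 clones. Its log2 fold change was 2.04 (SE 0.20, adjusted p = 5.6e-10). Of the 3 factors only Irf7 was nearly silent in progenitors.

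The 4 sensors rose as well. Ddx58 encodes RIG-I and Ifih1 encodes MDA5, helicases that detect viral RNA in the cytosol. Ddx58 was at 4.37 to 24.8 CPM in progenitors (median 13.7) and at 15.8 to 760 CPM in monocytic cells (median 68.0), a log2 fold change of 2.53 (SE 0.24, adjusted p = 2.63e-10). Ifih1 was at 6.69 to 23.6 CPM (median 16.5) and 7.18 to 429 CPM (median 40.9), a log2 fold change of 1.51 (SE 0.19, adjusted p = 2.54e-08). Both were higher in 23 of 24 clones, and the ranges of the states overlap for each. Dhx58, which encodes the related helicase LGP2, rose by 2.57 on the log2 scale. Zbp1, a sensor of left-handed nucleic acid that can trigger necroptosis, had the largest change of the group: it went from 0 to 2.24 CPM (median 0.884) to 1.26 to 701 CPM (median 19.2), a log2 fold change of 4.85 (SE 0.43, adjusted p = 4.41e-11), and was higher in 24 of 24 clones.

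The largest fitted changes among all members were those of Ifit3, Oas2 and Oas3. Their median progenitor counts were under 10, as were those of Cxcl10, Mx1, Mx2 and Oasl1. The sizes of all these changes are therefore loosely set. Among the 25 members with a higher median progenitor count the largest change was 5.01, that of Slfn5. IFIT proteins bind viral RNA that lacks the host's cap marks. Ifit3 was at 0 to 0.507 CPM in progenitors (median 0.0637) with 8 libraries at 0, and at 0 to 1050 CPM in monocytic cells (median 12.1) with 2 at 0. The fitted log2 fold change of 7.54 (SE 0.58, adjusted p = 3.22e-12) rests on progenitor counts near 0 and so is loosely set. Ifit1 was at 0.249 to 6.56 CPM (median 0.748) and 0 to 854 CPM (median 18.5). Its highest progenitor value is 3 counts in clone 21, and without that library the highest was 1.36 CPM. It had a log2 fold change of 4.72 (SE 0.49, adjusted p = 1.14e-09), and both genes were higher in 22 of 24 clones. Their neighbour Ifit2 was already at 7.90 to 21.5 CPM in progenitors (median 15.6) and reached 5.52 to 3017 CPM (median 31.4). Its smaller log2 fold change of 1.39 (SE 0.33, adjusted p = 3.76e-04) passed the test, and the states overlap over most of the progenitor range.

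OAS enzymes make the short 2′-5′ linked RNA that activates RNase L. Oas2 and Oas3 were each higher in 24 of 24 clones. Oas2 went from 0 to 1.08 CPM (median 0.148) to 0.490 to 416 CPM (median 8.70), a log2 fold change of 5.78 (SE 0.41, adjusted p = 6.81e-13). Oas3 went from 0 to 2.64 CPM (median 0.508) to 1.26 to 1152 CPM (median 25.9), a log2 fold change of 5.71 (SE 0.43, adjusted p = 2.12e-12). Oasl2 and Oas1a had log2 fold changes of 4.73 and 3.95. Oasl1, which is known to restrain translation of Irf7, had the smallest change of the family at 2.20 (SE 0.62, adjusted p = 0.00232) and was higher in 17 of 24 clones. Mx1, a dynamin-like GTPase that blocks viral replication, was at 0 in 14 progenitor libraries and reached at most 2.61 CPM there. It was at 0 to 590 CPM in monocytic cells (median 2.35), a log2 fold change of 5.19 (SE 0.70, adjusted p = 1.62e-07). Mx2 changed by 2.82 (SE 0.68, adjusted p = 4.78e-04), and its change differed between the clone sets, as given further on. Oas1a, Ifit1, Ifit3, Trim30a and Pydc4 have close relatives in the mouse genome, so some of their reads may be split or lost in counting.

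Isg15, a small protein that is attached to other proteins like ubiquitin, stood at 0 to 2.66 CPM in progenitors (median 1.30) and at 1 to 613 CPM in monocytic cells (median 21.1). Usp18, the protease that removes Isg15 and also dampens signalling at the interferon receptor, stood at 0 to 1.90 CPM (median 0.962) and 1 to 527 CPM (median 26.0). Both were higher in every one of the 24 clones. Their log2 fold changes were 4.13 (SE 0.39, adjusted p = 1.48e-10) and 4.67 (SE 0.42, adjusted p = 7.03e-11).

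All 8 other antiviral effectors rose. Slfn5, of the Schlafen family, went from 0 to 9.79 CPM (median 1.92) to 4.01 to 1714 CPM (median 66.0), a log2 fold change of 5.01 (SE 0.44, adjusted p = 4.57e-11). Rsad2, which encodes viperin, an enzyme that makes a chain-terminating nucleotide, went from 0 to 4.70 CPM (median 3.01) to 1.76 to 2437 CPM (median 35), a log2 fold change of 3.77 (SE 0.46, adjusted p = 2.77e-08). Each was higher in 23 of 24 clones. Samhd1, which hydrolyses deoxynucleotides, was high already in progenitors at 54.6 to 126 CPM (median 94.0) and reached 94.1 to 1950 CPM (median 324), a log2 fold change of 1.99 (SE 0.20, adjusted p = 3.81e-10). Ifitm3, a membrane protein that hinders viral entry, went from 43.7 to 254 CPM (median 139) to 80.3 to 2434 CPM (median 427), a log2 fold change of 1.97 (SE 0.26, adjusted p = 1.08e-07), and was higher in all 24 clones. The remaining log2 fold changes were 1.80 for the exonuclease gene Isg20, 1.73 for Trim30a and 1.41 for Eif2ak2, which encodes the RNA-activated kinase PKR. Per kilobase of exon, Ifitm3 was the most abundant member in both states, with medians of 205 and 630.4 CPM per kilobase, followed by Bst2 with 77.7 and 109.5.

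Bst2, or tetherin, holds budding viruses at the cell surface and was the weakest of the members that rose. It was at 31.5 to 116 CPM in progenitors (median 70.1) and at 14.7 to 1284 CPM in monocytic cells (median 98.9). The monocytic range covers the progenitor range on both sides, and 17 of 24 clones were higher. The log2 fold change of 0.79 (SE 0.34, adjusted p = 0.0378) no longer passed without clone 15 (0.66, adjusted p = 0.0617) or with no filter on low counts (0.67, adjusted p = 0.0772). Nor did it pass without clones 8, 13 and 15 (0.44, adjusted p = 0.163). It passed neither in clones 1 to 13 alone (0.57, adjusted p = 0.186) nor in clones 15 to 25 alone (1.12, adjusted p = 0.0796). The remaining alternatives kept the call, among them DESeq2 (0.78, adjusted p = 0.00984).

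Of the further interferon-induced genes, Cxcl10, a chemokine that attracts activated lymphocytes, went from 0 to 2.18 CPM (median 0.288) to 2.16 to 841 CPM (median 14.7) and was higher in 24 of 24 clones. Its log2 fold change was 5.6 (SE 0.52, adjusted p = 1.28e-10). Parp14, an ADP-ribosyltransferase, Xaf1, which binds the apoptosis inhibitor XIAP, and Rtp4, a chaperone of G protein-coupled receptors, had log2 fold changes of 2.77, 2.31 and 1.58. Lgals3bp was at 5.41 to 186 CPM in progenitors (median 80.8) and at 4.34 to 1072 CPM in monocytic cells (median 71.6). It was higher in 9 of 24 clones, and its log2 fold change of -0.13 (SE 0.32, adjusted p = 0.732) did not pass. Ifi44 was at 0 in 18 progenitor libraries and had a median of 0.288 CPM in monocytic cells, with 129 CPM in clone 15. Pydc4, of the interferon-inducible p200 family, was at 0 in 23 progenitor libraries and reached 43.4 CPM in the monocytic cells of clone 15.

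**Figure D1:**
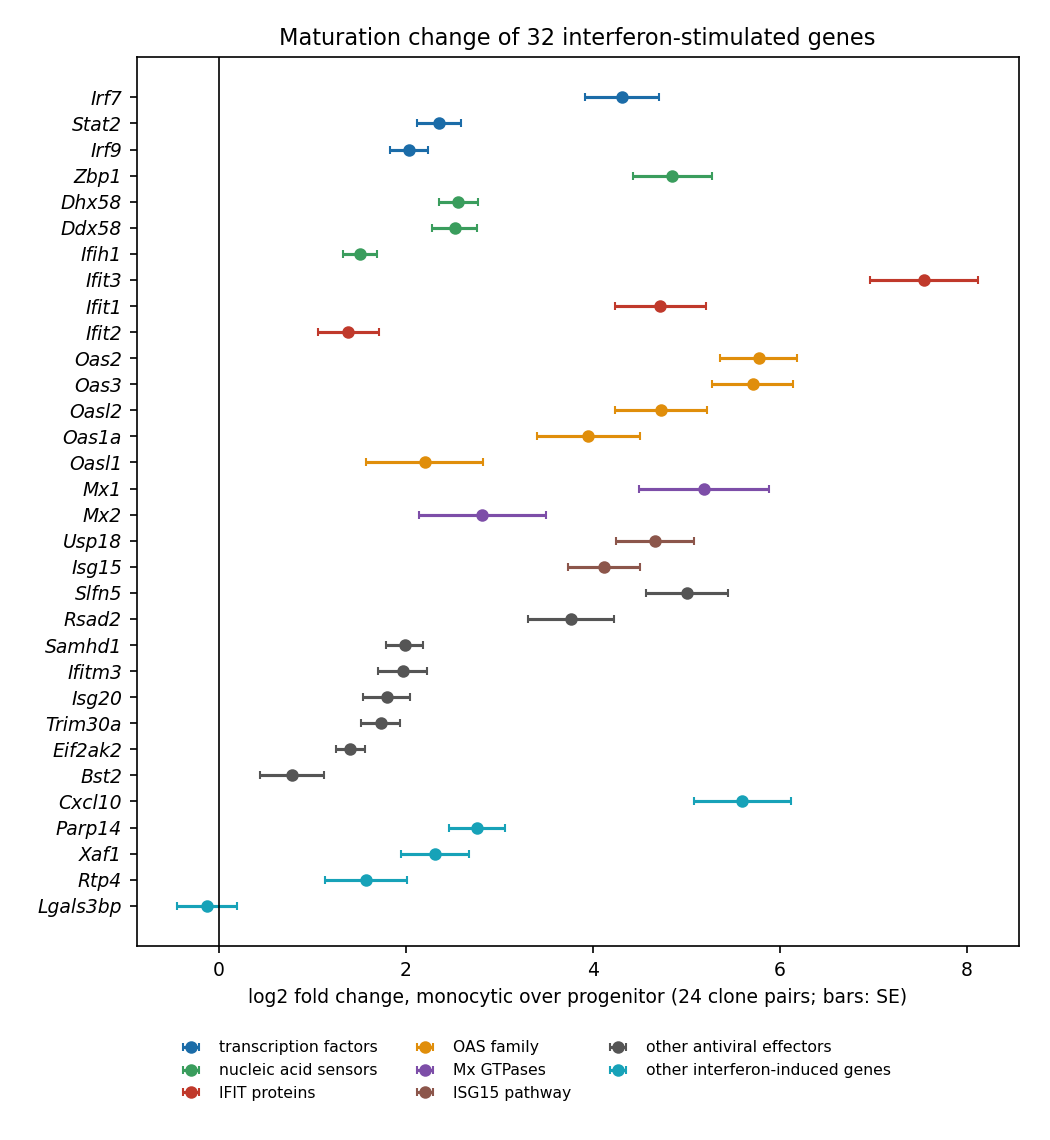
Log2 fold change of monocytic over progenitor cells for the 32 tested members, grouped by role, with bars of 1 SE from the paired fit over 24 clones. All members but Lgals3bp lie to the right of 0, from 0.79 for Bst2 to 7.54 for Ifit3.

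The rest of the pathway was read from lists set by known function. All 11 receptor and signalling genes tested rose. Il28ra, which encodes a chain of the interferon lambda receptor, had the largest log2 fold change at 7.06 (SE 0.45), followed by Ifngr2 at 2.77 (SE 0.15). The chains of the type I receptor, picked out here after their values were seen, rose by less, Ifnar1 by 0.59 (SE 0.11) and Ifnar2 by 0.66 (SE 0.08). Of 16 sensors and adaptors 13 rose, with the endosomal RNA sensor Tlr7 at 6.39 (SE 0.45), while Ticam2 fell by 0.27 and the STING gene Tmem173 did not pass (0.13, SE 0.12, adjusted p = 0.323). The 6 other interferon regulatory factors tested all rose, and Irf5 had the largest change at 3.21 (SE 0.26). Of 11 negative regulators 8 rose, including Socs1, an inhibitor of Jak kinases, at 3.78 (SE 0.37), and Trim24, Rnf125 and Nlrc3 fell. Among 38 other interferon-inducible genes 29 rose, led by Slfn1 at 8.38 (SE 0.50), and 5 fell. In the list of GTPases and other targets associated with interferon gamma, 4 of 13 were higher and 5 lower, near the shares of all genes. In it Irgm2 rose by 2.78 (SE 0.24), Gbp4 fell by 4.37 (SE 0.65) and Gbp8 fell by 3.20 (SE 0.41). These counts stand beside the 38.5% of all genes that rose and the 40.1% that fell.

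The clones in the 2 runs of numbers were sequenced to different depths, so the change was also fitted within each run. It passed upward in 30 of 32 members in clones 1 to 13 (39.5% of genes) and in 28 of 32 in clones 15 to 25 (31.2% of genes). When the difference between the runs was tested, 2 members passed, both with a smaller change in clones 15 to 25, compared with 17.3% of all genes; no member passed the other way, compared with 6.44% of genes, and 6 members had an unadjusted p under 0.05. Mx2 was one of them, with a log2 fold change of 5.02 in the first run of numbers and 0.61 in the second, which is a difference of -4.41 (SE 1.06, adjusted p = 0.00425). Slfn5 was the other, with 5.87 and 3.65, a difference of -2.22 (SE 0.68, adjusted p = 0.02). Without clone 15, 6 of 32 members passed, all with a smaller change in clones 15 to 25 (16.4% of genes), adding Eif2ak2, Irf9, Mx1 and Stat2. Without clones 8, 13 and 15, Mx2, Slfn5, Eif2ak2 and Stat2 passed in that direction (17.7% of genes), and Isg20 passed the other way (0.86, SE 0.29, adjusted p = 0.0323), compared with 7.93% of genes. These shares of members are near or below those of all genes.

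The monocytic clones differed widely in how far the group rose. Averaged over the 34 members as log2 CPM (a level, with a prior count of 2), progenitors stood between 0.51 and 2.23 with a median of 1.55, and monocytic cells between 1.39 and 9.26 with a median of 4.52. The monocytic value was above its own progenitor in 24 of 24 clones. The difference ran from 0.11 in clone 22 to 7.27 in clone 15. Clone 15 stood highest at 9.26, followed by clone 8 at 7.57, clone 13 at 6.56 and clone 6 at 5.20. The lowest were clone 22 at 1.39, clone 9 at 2.19 and clone 19 at 2.30. The top 3 clones therefore stood apart from an otherwise graded row, and they come from both runs of clone numbers.

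**Figure D2:**
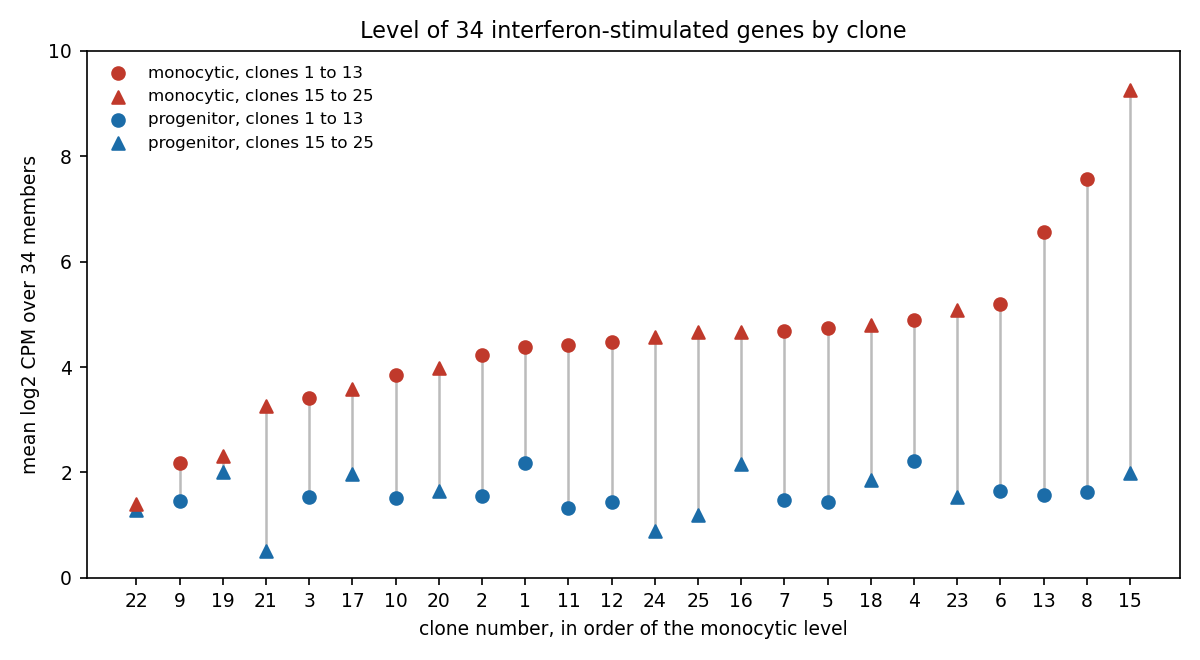
Mean log2 CPM of the 34 members in each clone, as progenitor (blue) and monocytic cell (red), in order of the monocytic level; circles are clones 1 to 13, triangles clones 15 to 25, and grey lines join the states of a clone. Progenitors lie between 0.51 and 2.23, while monocytic cells run from 1.39 in clone 22 to 9.26 in clone 15.

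The same few clones led gene after gene. Clone 15 had the highest monocytic level in 33 of 34 members, and clone 8 had it in the remaining one, Bst2, at 1284 CPM. Clone 8 was among the top 2 clones in 31 members. How often these clones led over all genes was not counted, so these counts have no share to stand beside. The monocytic library of clone 15 is also shallow, at 2.78 M counts. For Irf7 the monocytic level was 1941 CPM in clone 15, and for Ifit2 it was 3017 CPM in clone 15, 494 CPM in clone 8 and 213 CPM in clone 13, with no other clone above 64.0 CPM. Clone 22 had 0 CPM of Ifit1 and Ifit3, and clone 9 had 1.47 and 1.2 CPM.

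**Figure D3:**
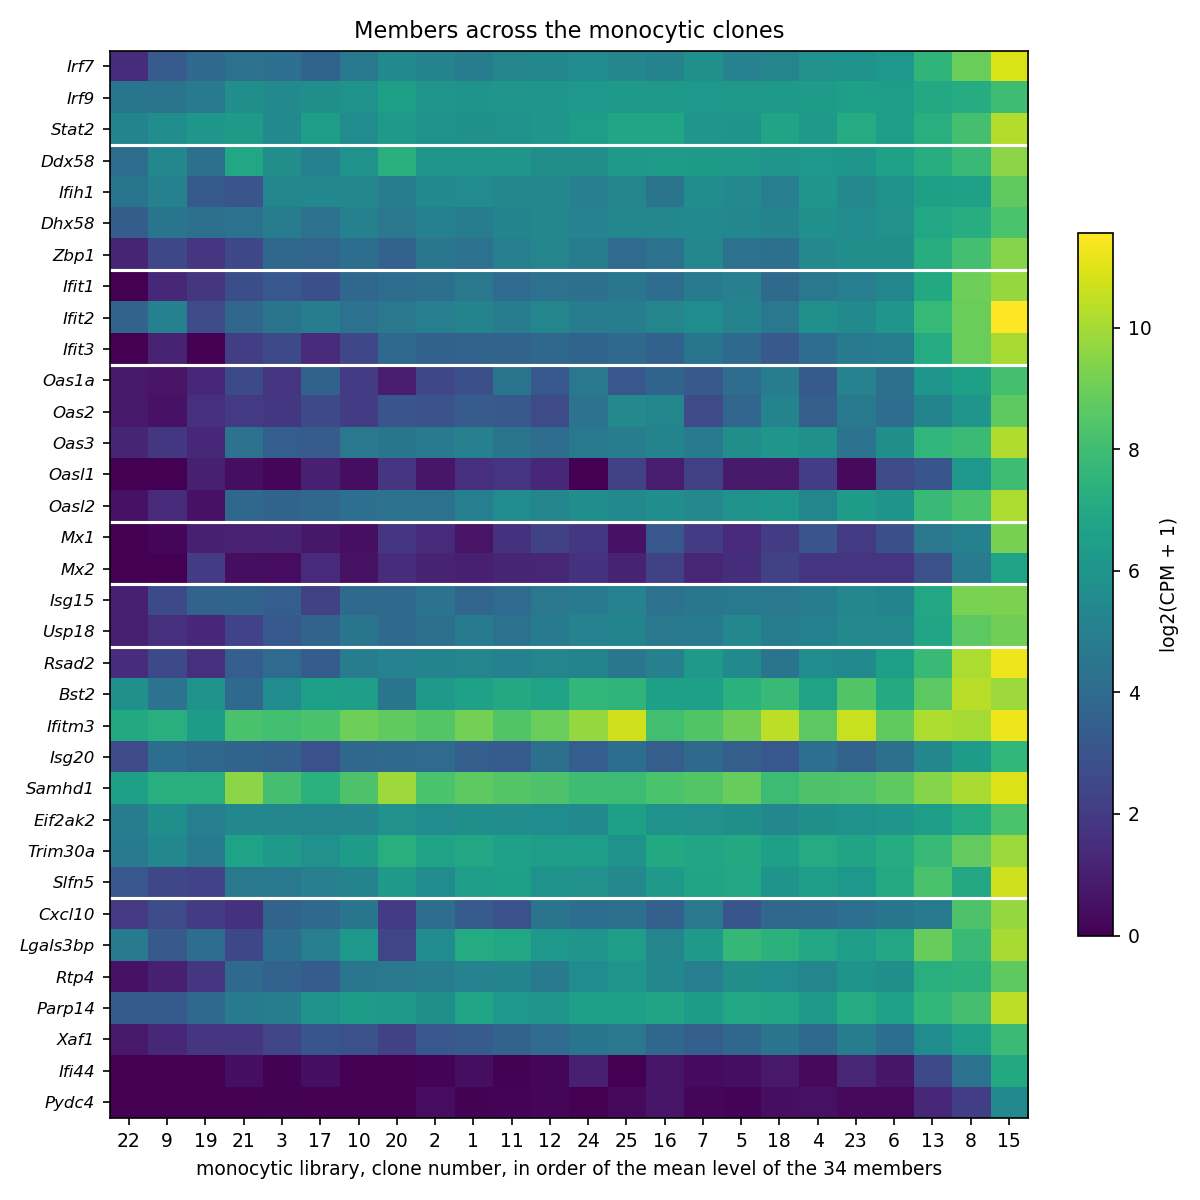
Level of each of the 34 members, as log2(CPM + 1) from 0 (dark) to the top of the scale (yellow), in the 24 monocytic libraries in order of their mean level; white lines part the roles. The columns of clones 13, 8 and 15 at the right are brighter over nearly all members, with clone 15 highest in 33 of the 34.

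Put as spread, the SD of log2 CPM over monocytic clones had a median of 1.91 over the 32 tested members and 0.61 over all genes, and 22 of 32 members lay above the 90th percentile of all genes (an SD of 1.35). In progenitors the median SD was 0.86 over members and 0.51 over all genes, and 5 members lay above the 90th percentile. The SD was larger in the monocytic state in 31 of 32 members, the exception being Mx2, compared with 61.5% of genes. Without clones 8, 13 and 15 it was larger in 27 of 32 members, compared with 58.1% of genes. Counts near 0 leave the progenitor SD loosely set, so the 25 members with a median of at least 10 progenitor counts were again read on their own. Their median SD was 0.79 in progenitors and 1.80 in monocytic cells. The SD was larger in the monocytic state in 25 of 25, compared with 61.1% of the 11182 genes counted as well. Without clones 8, 13 and 15 the SD was larger in 21 of 25, compared with 57.8% of those genes. The members also varied together: the median Pearson r between members over the 24 monocytic libraries was 0.83 and all 496 member pairs were positive. In progenitors the members had a median of 0.16 and 318 positive pairs. Between all genes the median was 0.03 in monocytic cells and 0.02 in progenitors, with 52.2% and 51.6% of pairs positive. Without clones 8, 13 and 15 the monocytic median of the members was 0.65, with 488 positive pairs. Among the 25 members counted in progenitors the median r was 0.84 in monocytic cells, with 300 of 300 pairs positive, and 0.16 in progenitors, with 190 of 300 positive. These libraries share no sample, but each pair of genes is read from the same libraries, so this describes the clones and is no test.

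Irf7 tracked the other members closely, with r of 0.98 in clones 1 to 13 and 0.97 in clones 15 to 25, as did Usp18 with 0.98 and 0.97 and Zbp1 with 0.97 and 0.98. The loosest, by the lower of the values, were Samhd1 with 0.96 and 0.72 and Bst2 with 0.97 and 0.73. Outside the list, the genes whose monocytic level was most like the mean of the members, ranked by the lower of the r values within the runs among 8780 genes of at least 3 mean log2 CPM, were Ifi204, Epsti1, Mnda, Irgm1 and Igtp, all with r between 0.95 and 0.97 over 13 and 11 clones.

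Differences among clones were tested by an F test of all clone terms beside the state. Of the 32 members, 18 passed, compared with 11.7% of all genes: Cxcl10, Ifih1, Ifit1, Ifit2, Ifit3, Irf7, Isg15, Isg20, Lgals3bp, Mx1, Mx2, Oas2, Oas3, Oasl1, Rsad2, Slfn5, Stat2 and Zbp1. Of these, Cxcl10, Ifit3, Mx1, Mx2, Oas2, Oas3 and Oasl1 had a median under 10 counts in the progenitor libraries. The fit shares each clone term between the states, so a call does not show that a clone held its level in both. The adjusted p was 8.64e-04 for Mx1, 0.00169 for Ifit3 and 0.0132 for Irf7. The count depended on few clones. It was 9 of 32 without clone 15 (10.1% of genes) and 3 of 32 without clones 8, 13 and 15 (9.99% of genes), where Ifih1, Mx2 and Oas2 passed. In clones 1 to 13 alone none of 30 passed in edgeR (0.299% of genes), although 16 had an unadjusted p under 0.05. In clones 15 to 25 alone 3 of 24 passed (3.76% of genes), namely Ifit2, Mx2 and Oas3.

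Whether a clone that is high as a progenitor is also high as a monocytic cell was asked with Pearson's r over the 24 clone pairs and 100000 permutations of the pairing. No member of 32 passed after adjustment over all genes, whereas 8.3% of genes did; with the clones centred on their run, no member and 1.17% of genes passed. Of the 25 members counted in progenitors, 0 passed, compared with 8.34% of the genes counted as well. Without adjustment, 2 members had p under 0.05, both among the 25. The median r was 0.18 over the members and 0.19 over all genes. Lgals3bp had the highest value (r = 0.50, rho = 0.45, permutation p = 0.0129, adjusted p = 0.0962), which fell to 0.13 without the 2 progenitor libraries farthest from the median. Ifih1 followed with r = 0.45 (rho = 0.50, permutation p = 0.0271, adjusted p = 0.145), and r = 0.26 without those farthest. For the mean over the members r was 0.24. The 3 highest monocytic clones, 15, 8 and 13, had progenitor values of 1.99, 1.63 and 1.57, inside the range of the other progenitors, as the plot of the level by clone shows.

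Other quantities moved with the monocytic level of the members. Over 13 and 11 clones, the r of the mean member level with summed macrophage markers was 0.75 and 0.83, with nonclassical monocyte markers -0.80 and -0.63, and with progenitor markers -0.51 and -0.70. With T and NK cell markers it was -0.27 and -0.84, with plasmacytoid dendritic cell markers 0.59 and 0.21, and with conventional dendritic cell markers 0.54 and 0.28. With erythroid markers it was 0.76 and -0.002, with B cell markers 0.16 and -0.01, with neutrophil markers -0.14 and 0.03, and with the log2 total count 0.10 and 0.17. With monocyte markers it was -0.14 and 0.78, so the runs disagree. Summed erythroid markers were only 0 to 0.346 CPM in the monocytic libraries of clones 1 to 13, so their r of 0.76 rests on few counts. Clone 22, the lowest for the members, also had the lowest monocyte markers (5026 CPM) and the highest progenitor markers (1046 CPM) of the monocytic libraries, and clone 9 had the highest neutrophil markers (197500 CPM). The part of these markers in the result was not tested. In progenitors the mean member level had r of 0.43 and 0.75 with the log2 total count.

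Interferon genes themselves were barely counted in the clones. Ifnb1, which encodes interferon beta, had 0 counts in all 24 progenitor libraries. In monocytic cells it had 97 counts in 12 of 24 libraries, of which 52 were in clone 8, 12 in clone 13, 10 in clone 4 and 8 in clone 15. Scaled to depth the highest were clone 15 at 3.31 CPM, clone 8 at 2.57 CPM and clone 13 at 0.598 CPM, which are also the 3 clones with the highest member levels. The exact Poisson 95% intervals, which cover counting error only, were 1.43 to 6.52 CPM for clone 15 and 1.92 to 3.36 CPM for clone 8, so these are not ordered at this depth. Clone 13 had an interval of 0.310 to 1.05 CPM. In clones 16 to 25 except clone 24, a count of 0 allows up to 3 counts, or 0.348 to 1.51 CPM, so clone 13 cannot be set above these. Ifna1, Ifna2, Ifna4, Ifna5, Ifna9, Ifng, Ifnl2 and Ifnl3 had 0 counts in every monocytic library. None of the 11 interferon genes passed the filter, so none was tested.

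In the primary subsets the group as a whole stood at a similar level. The mean log2 CPM of the 34 members was 5.85 and 6.05 in the classical libraries, 5.08 and 5.61 in the intermediate ones and 5.65 and 5.74 in the nonclassical ones. These values lie above the median of the monocytic clones and below clones 8, 13 and 15. Culture and sorting differ between clones and primary cells, so cell type and origin cannot be told apart and no test was made.

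No member passed between subsets in the edgeR fit of the 6 subset libraries. For nonclassical against classical, 0 of 34 passed (5.82% of 13944 genes) and 7 had an unadjusted p under 0.05. For intermediate against classical, 0 passed (2.11% of genes) and 7 had an unadjusted p under 0.05. For nonclassical against intermediate, 0 passed (0% of genes) and 6 did. The fit has 3 residual degrees of freedom and a wide spread between replicates, and DESeq2 called more: 7 members (24.1% of genes), 6 members (22.3%) and 3 members (8.69%).

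Slfn5 had the largest difference behind those calls. It was at 186 and 111 CPM in classical monocytes, at 24.4 and 31.6 CPM in intermediate and at 23 and 50.6 CPM in nonclassical ones. Both classical libraries lie above all 4 others. The log2 fold change was -2.0 (SE 0.45, adjusted p = 0.0775) for nonclassical and -2.35 (SE 0.46, adjusted p = 0.0744) for intermediate cells in edgeR. Over 17093 genes, both classical libraries lay above both nonclassical ones in 31% and above both intermediate ones in 31.4%. Oas3 was at 95.7 and 67.8 CPM in classical, 17.4 and 13.5 CPM in intermediate and 16.9 and 44.7 CPM in nonclassical monocytes. It was thus highest in the classical libraries too, with a log2 fold change of -2.34 (SE 0.51, adjusted p = 0.0899) in intermediate cells. Eif2ak2 was at 36.5 and 33.3 CPM, 23.1 and 21.4 CPM, and 18 and 9.39 CPM in the same order. In the other direction, Ifit3 was at 42.2 and 48.6 CPM in classical, 47.1 and 59.3 CPM in intermediate and 82.4 and 73.5 CPM in nonclassical cells, a log2 fold change of 0.84 (SE 0.24, adjusted p = 0.126) of nonclassical over classical. Isg20 was at 17.1 and 15.3 CPM, 20.2 and 24.5 CPM, and 36.5 and 31.7 CPM. Irf7 did not separate the subsets, with 227 and 190, 223 and 180, and 186 and 227 CPM.

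Markers of other cells moved with the subsets. Summed B cell markers were 32.3 to 34.8 CPM in classical, 370 to 425 CPM in intermediate and 1847 to 2046 CPM in nonclassical libraries. Summed conventional dendritic cell markers were 180 to 203 CPM, 6763 to 7829 CPM and 9578 to 9605 CPM. Their part in the member values was not tested. Ifnb1 had 1 and 3 counts in the classical libraries, 20 and 102 in the intermediate and 228 and 203 in the nonclassical ones, with no matching order in the mean member level.

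**Figure D4:**
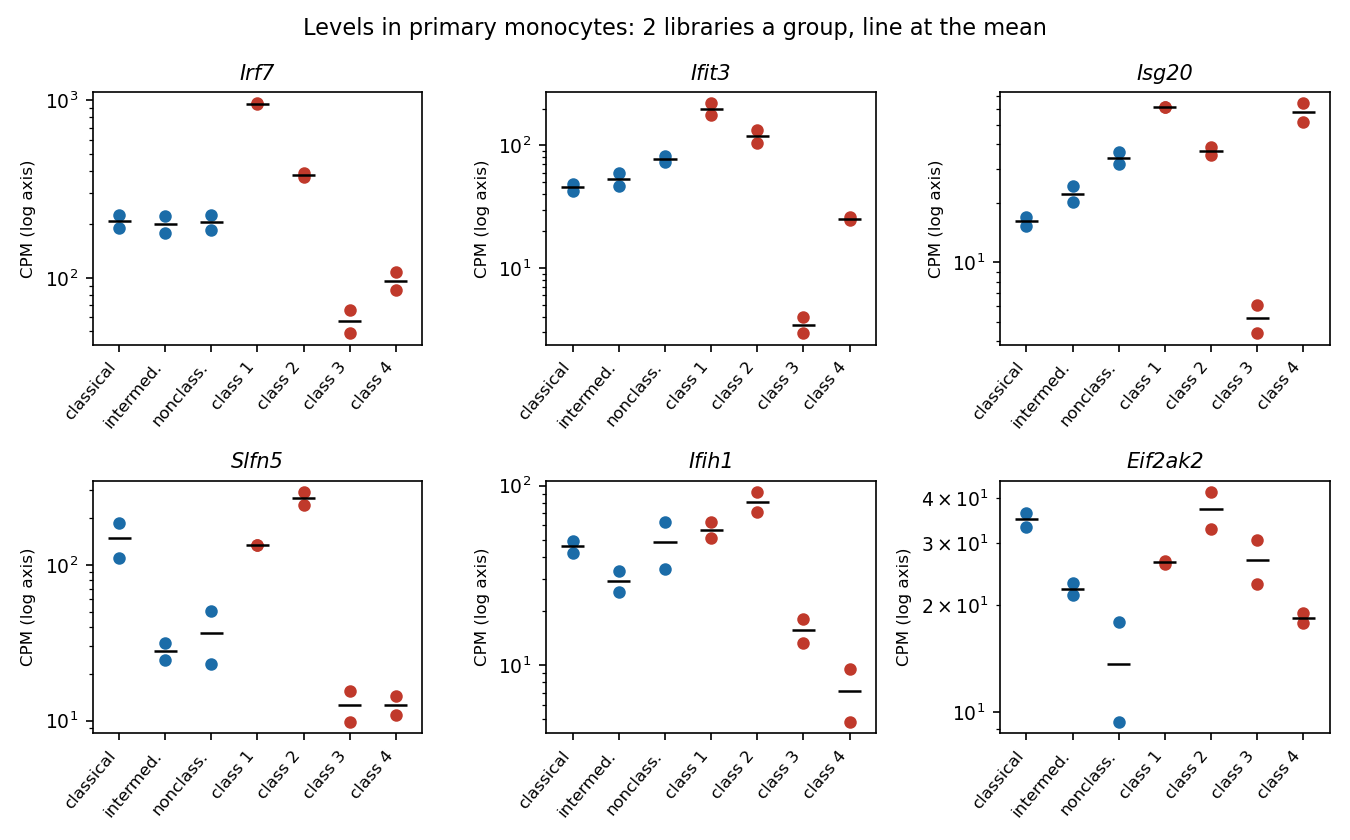
Level in CPM, on log axes that differ between panels, of Irf7, Ifit3, Isg20, Slfn5, Ifih1 and Eif2ak2 in each primary library, with subsets in blue, classes in red and a line at the mean of 2 libraries. Irf7 runs from 48.7 CPM in class 3 to 959 CPM in class 1, and Slfn5 is high in classical monocytes and classes 1 and 2.

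The 4 classes differed strongly. The mean log2 CPM of the members was 6.87 and 7.03 in the class 1 libraries, 6.74 and 6.77 in class 2, 3.84 and 4.11 in class 3 and 4.86 and 4.96 in class 4. Classes 1 and 2 were the top 2 in 32 of the 34 members. The lowest class was class 3 in 22 members and class 4 in 12.

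Class 3 fell below class 1 in 32 of 34 members, compared with 7.94% of 13686 genes, with a median log2 fold change of -2.76 over the members and 0.00 over all genes. Ifit3 was at 176 and 220 CPM in class 1 and at 3.99 and 2.92 CPM in class 3, a log2 fold change of -5.83 (SE 0.26, adjusted p = 1.2e-04). Pydc4, untestable in the clones, was at 81.3 and 95.7 CPM in class 1 and at 2.07 and 1.44 CPM in class 3, a log2 fold change of -5.64 (SE 0.29, adjusted p = 1.2e-04). For each of these the classes do not overlap. With 2 libraries a class, 26.5% of 17093 genes lay wholly lower in class 3 than in class 1. Rtp4 fell by 5.09, Oas2 by 4.92 and Ifit1 by 4.88 on the log2 scale. Irf7 was at 959 and 957 CPM in class 1 and at 65.6 and 48.7 CPM in class 3, a log2 fold change of -4.05 (SE 0.20, adjusted p = 1.2e-04). The other transcription factors fell less, with -0.79 for Irf9 and -1.32 for Stat2. The members that did not pass were Eif2ak2, at 26.2 and 26.7 CPM in class 1 and 23 and 30.6 CPM in class 3 (log2 fold change 0.03, SE 0.22, adjusted p = 0.963), and Ifi44, at 15.6 and 26.1 CPM in class 1 and 0.614 and 0.893 CPM in class 3 (log2 fold change -4.77, SE 1.46, adjusted p = 0.0702). Between 26 and 33 members passed when 1 of the 8 libraries was left out. Irf9 no longer passed without class 1 replicate 1 (adjusted p = 0.0712) or class 3 replicate 2 (adjusted p = 0.0889), nor Stat2 without class 1 replicate 2 (adjusted p = 0.114) or class 3 replicate 1 (adjusted p = 0.117).

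Class 3 against class 2 gave the same count, 32 of 34 lower (12.4% of genes), with a median of -2.66. Class 4 fell below class 1 in 28 members (15% of genes) with a median of -1.92, and below class 2 in 27 (21.4% of genes) with a median of -1.70. These comparisons share libraries. The members that did not pass between class 4 and class 1 were Ddx58, Isg20, Rsad2, Mx2, Eif2ak2 and Ifi44. Isg20 was at 61.4 and 61.3 CPM in class 1, at 6.06 and 4.36 CPM in class 3 and at 51.5 and 64.2 CPM in class 4, so that class 4 overlapped class 1. Ddx58, the RIG-I gene, was at 75.3 and 89.7 CPM, 12.3 and 6.08 CPM, and 56.1 and 88.8 CPM in the same order.

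Class 4 lay above class 3 in 18 members (13% of genes) and below it in 4 (15.7% of genes). The largest increases were in Rtp4 (log2 fold change 3.54, SE 0.35), Rsad2 (3.48, SE 0.43), Isg20 (3.47, SE 0.24), Pydc4 (3.01, SE 0.27) and Ddx58 (2.97, SE 0.38). Rsad2, the viperin gene, was at 7.55 and 4.33 CPM in class 3 and at 45.5 and 87.8 CPM in class 4. The lower ones were Ifih1 (-1.14, SE 0.34), Oas3 (-1.20, SE 0.37), Irf9 (-0.66, SE 0.14) and Trim30a (-0.63, SE 0.13). Ifih1, the MDA5 gene, was at 13.3 and 18.1 CPM in class 3 and at 4.81 and 9.50 CPM in class 4. The RIG-I and MDA5 genes thus lay in opposite directions between these classes. Without class 3 replicate 2 the count of members higher was 10, and without class 3 replicate 1 the count lower was 0, and the calls of Ifih1 and Oas3 were lost when any library but class 4 replicate 2 was left out (adjusted p up to 0.203 and 0.186).

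The mean member level of class 2 was close to that of class 1, and 3 members passed. Parp14 and Slfn5 were higher (3.34% of genes) and Irf7 was lower (5.95% of genes). Irf7 was at 370 and 390 CPM in class 2, well under its 959 and 957 CPM in class 1, with a log2 fold change of -1.26 (SE 0.18, adjusted p = 0.00401). Parp14 was at 43.6 and 48 CPM in class 1 and at 87.4 and 108 CPM in class 2, a log2 fold change of 1.17 (SE 0.21, adjusted p = 0.0119). Slfn5 was at 134 CPM in both class 1 libraries and at 241 and 293 CPM in class 2, a log2 fold change of 1.07 (SE 0.24, adjusted p = 0.0298). The classes do not overlap in any of the 3. With 2 libraries a class, 22.5% of 17093 genes lay wholly higher in class 2 and 28.3% wholly lower. Larger differences that did not pass were those of Ifi44, at 15.6 and 26.1 CPM in class 1 and 3.33 and 2.75 CPM in class 2 (-2.70, SE 1.31, adjusted p = 0.257), and Cxcl10, at 77.9 and 110 CPM and 27.9 and 36.6 CPM (-1.47, SE 0.40, adjusted p = 0.0594). The calls of Parp14 and Slfn5 were both lost without either class 1 library, for example at adjusted p = 0.113 and 0.165 without class 1 replicate 1, and without class 2 replicate 2. That of Slfn5 was also lost without class 2 replicate 1 (adjusted p = 0.0743). DESeq2 called 6 members lower (10% of genes).

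Markers of other cells moved with the classes too. Summed monocyte markers were 59510 to 63620 CPM in class 1, 71510 to 74540 CPM in class 2, 27420 to 31530 CPM in class 3 and 18420 to 18660 CPM in class 4. Neutrophil markers were 687 to 1424 CPM, 776 to 1095 CPM, 8456 to 12350 CPM and 52700 to 73870 CPM in the same order. B cell markers reached 2246 to 2736 CPM and erythroid markers 3999 to 4984 CPM in class 4, while class 3 had 53.5 to 63.7 CPM and 1.99 to 3.91 CPM. Conventional dendritic cell markers ran in the same high-to-low order as the mean member level, with 4306 to 4421 CPM in class 1, 1597 to 2450 CPM in class 2, 1013 to 1278 CPM in class 4 and 104 to 236 CPM in class 3. Macrophage markers were 1225 to 1473 CPM in class 1, 341 to 446 CPM in class 2, 864 to 1146 CPM in class 4 and 98.2 to 137 CPM in class 3, lowest in class 3 as the members were on average. Nonclassical monocyte markers were lowest in class 3 too, at 315 to 323 CPM, but highest in class 2, at 1665 to 2218 CPM. They were 965 to 1172 CPM in class 1 and 629 to 651 CPM in class 4. Plasmacytoid dendritic cell markers were highest in class 4, at 948 to 1120 CPM. T and NK cell markers were highest in class 4 too, at 350.4 to 353.5 CPM, and lowest in class 2, at 1.09 to 1.90 CPM. The part of these markers in the member values was not tested. Outside the list, 16 of 18 interferon gamma type GTPases and targets were lower in class 3 than in class 1. So were 31 of 43 other interferon-inducible genes, and none of either list was higher. Of all 13686 genes tested, 7.94% were lower and 744 genes were higher.

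**Figure D5:**
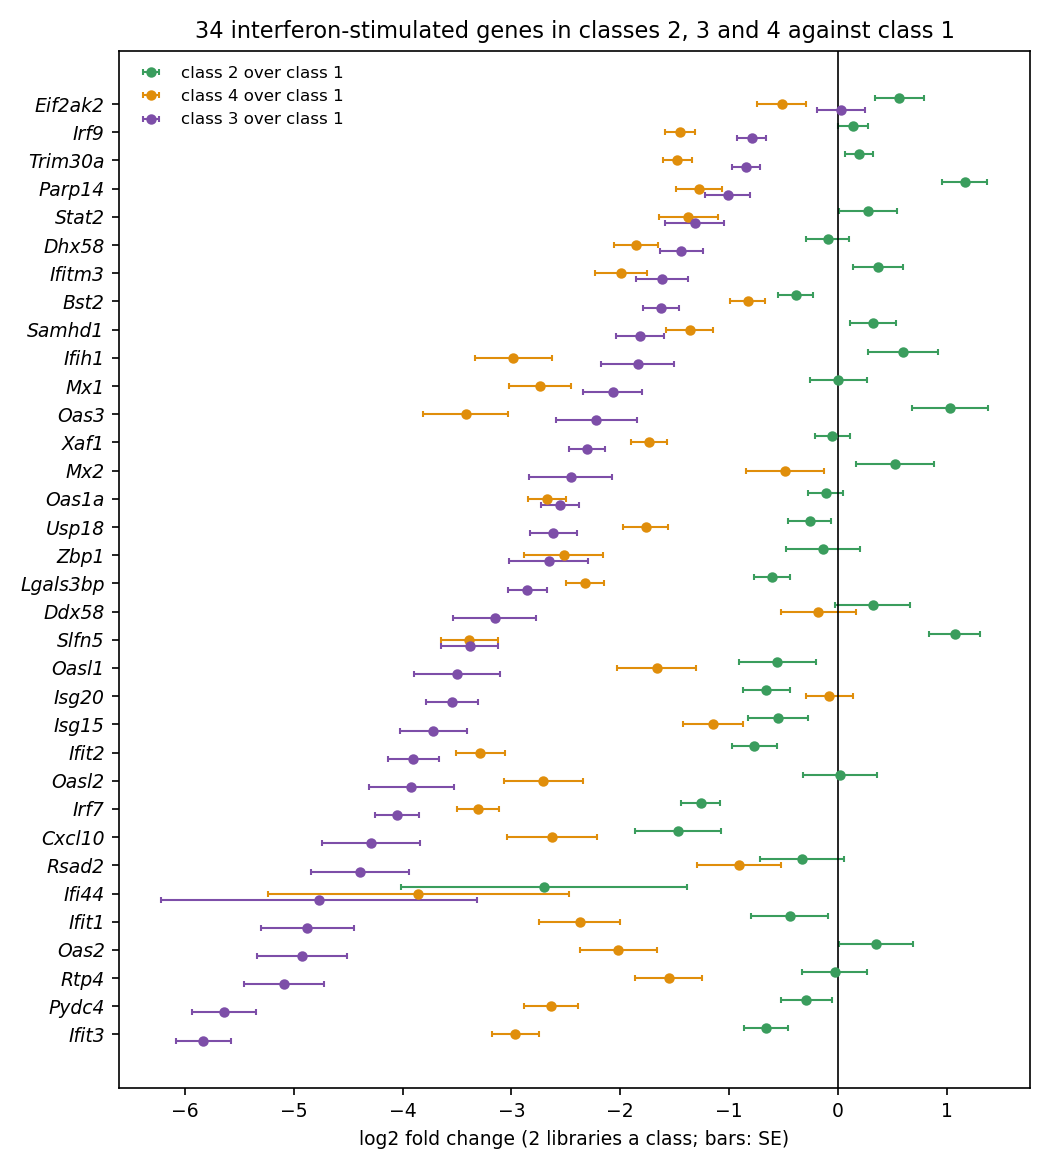
Log2 fold change of class 2 (green), class 4 (orange) and class 3 (purple) over class 1 for the 34 members, in order of the class 3 value, with bars of 1 SE from the fit over 8 libraries. Class 3 runs from -5.83 for Ifit3 to 0.03 for Eif2ak2, while class 2 runs from -2.70 for Ifi44 to 1.17 for Parp14.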

How the data were processed

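RNA-seq counts of 62 mouse libraries were used. Reads were aligned with STAR 2.7.3a and counted with HTSeq 0.6.0 on build mm9, per the submitters' processing notes; the annotation release and strand setting are not given in the sources used here. The deposited values are raw counts per gene, which the authors did not normalise, for 37620 genes; 1 column that matches no sample was not used. Members were found by their gene symbol in the count table and then followed by the Ensembl identifier of that row. The members and lists were chosen with earlier results of these data known. All 34 members could be named, with the genes of each pathway list that had the largest change past the threshold or were the most abundant among those that did not pass, and the genes most like the mean of the members.

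Tests used edgeR 4.0.16 (quasi-likelihood F test, TMM scaling, filterByExpr with a minimum count of 10) in R 4.3.3, 2-sided, with Benjamini-Hochberg adjustment over all genes and a threshold of 0.05. Clones were paired by their number, which marks the same clone in both states: the deviations of its 2 libraries from the state means had a mean r of 0.236, over 0.1 in 21 of 24 clones. Subsets were fitted on 6 libraries and classes on 8. Levels are CPM, TMM-scaled over the 62 libraries; log2 CPM used a prior count of 2, and the heat map a pseudocount of 1. Clone rank used 100000 permutations. Alternatives were DESeq2 1.42.0 and its size factors, other filters, other prior counts, each clone run alone, all 14 primary libraries in 1 fit, a replicate block and leaving out libraries; those without clone 15 and without clones 8, 13 and 15 were added after seeing the data. Exon lengths came from a later annotation of GRCm38. The procedures were tested on simulated data. A gene of the pathway lists is counted in them but not reported by name here.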

Additional observations from a re-analysis of the deposited data

Results flagged for a closer look

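The maturation change differed between clones 1 to 13 and clones 15 to 25 in Mx2 and Slfn5. These are 2 of 32 members, while 17.3% of all genes had a smaller change in clones 15 to 25 in the same test. For Mx2 the log2 fold change in clones 15 to 25 minus that in clones 1 to 13 was -4.41 (SE 1.06, adjusted p = 0.00425, edgeR interaction of state and run). Its progenitor level was 0 to 0.343 CPM in clones 1 to 13 and 0 to 21.4 CPM, with a median of 2.19, in clones 15 to 25, and 12 of 13 and 6 of 11 clones were higher as monocytic cells. For Slfn5 the difference was -2.22 (SE 0.68, adjusted p = 0.02). Its progenitor median was 1.23 CPM in clones 1 to 13 and 4.32 CPM in clones 15 to 25, and its monocytic medians were 88.3 and 57.0 CPM. The runs also differ in depth, with median totals of 14.7 and 12.5 M counts in progenitors and 26 and 3.18 M in monocytic cells, and the part of depth in these differences was not tested.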

How the results depend on the processing

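Members that passed in the reported fits gave 2457 values under the alternatives, which leaves out members that pass only under an alternative. Of these values, 2283 kept their direction and their side of the threshold, 174 kept their direction but no longer passed, and 0 reversed. With no replicate block, 30 of 32 members and 4416 of 11614 genes rose between the states, and Mx2 no longer passed (1.38, adjusted p = 0.117). In clones 15 to 25 alone, 20 of 24 members and 2992 of 10289 genes rose, and fewer members could be tested there. The clone effect passed in 0 members in clones 1 to 13 alone, 3 in clones 15 to 25 alone, 9 without clone 15 and 3 without clones 8, 13 and 15. The difference between clone runs passed in 1 member with a minimum count of 30, where Mx2 was under the filter, in 6 without clone 15 and in 5 without clones 8, 13 and 15, of which 1 was higher and 4 lower in clones 15 to 25. No rank result changed its side of the threshold under rank correlation, centring or removal of the depth trend.

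DESeq2 called 4 members higher and 3 lower for nonclassical against classical, and 1 and 5 for intermediate against classical. For nonclassical against intermediate it called 3 higher. Over all genes it called 24.1%, 22.3% and 8.69% in either direction. With all 14 primary libraries in 1 fit the member counts were 2 and 3, 6 lower, and 1 higher. For class 2 against class 1, members lower numbered 6 with DESeq2, 3 with a minimum count of 30 and 6 with no filter, and 0 were higher with all 14 libraries in 1 fit. For class 4 against class 2, 1 member was higher with DESeq2, with its size factors and with a minimum count of 30. For class 4 against class 3, 0 were lower with all 14 libraries in 1 fit. The cause was not tested.

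Leaving out each library in turn gave 0 to 3 members higher and 1 to 5 lower for class 2 against class 1, 26 to 33 lower for class 3 against class 1, 32 to 33 for class 3 against class 2, 25 to 30 for class 4 against class 1, and 24 to 29 lower with 0 to 1 higher for class 4 against class 2. For class 4 against class 3 it gave 10 to 17 higher and 0 to 4 lower. Between subsets it gave 0 in each. A group left with 1 library is assumed to vary like the others.

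Replicate numbers of subsets and classes name libraries only. Same-numbered libraries had an r of deviations of 0.146 to 0.355 in subsets and -0.018 to 0.062 in classes. With a replicate block, class 4 against class 3 had 16 members higher and 4 lower, class 4 against class 2 had 26 lower, and the other counts did not move.

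The mean member level over the 32 members with at least 10 counts in the median library was 6.93 in class 2, 4.21 in class 3, 5.12 in class 4, 6.12 in classical and 5.88 in nonclassical cells, since the lowest members drop out. With DESeq2 size factors it was 6.81 in class 2 and 5.83 in nonclassical cells. Depth limits the progenitor values of Pydc4, Ifi44, Mx1, Ifit3 and Mx2 most, which had 0 counts in 23, 18, 14, 8 and 8 libraries.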

Other observations

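Interferon genes were counted in several primary libraries. Class 1 had 52 and 10 counts of Ifnb1 and class 2 had 6 and 16, while class 3 had 1 and 0 and class 4 had none in either library. A count of 0 in class 4 allows up to 3 counts, or 0.105 and 0.115 CPM, for counting error only. Ifng was counted 71 and 102 times in class 4 and 65 and 364 times in the nonclassical libraries. It was counted 18 and 31 times in class 1, 0 times in both class 2 libraries and 5 and 9 times in class 3. Ifna2 had 123 counts in 1 nonclassical library and 0 in the other 13 primary libraries.

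The genes most like the mean of the members in monocytic clones also included Slfn8, Trafd1, Ifi203, Tor3a and Ms4a4c, with r between 0.92 and 0.98 within the runs. Of the 10 genes so ranked, Epsti1 and Trafd1 stood in none of the pathway lists.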
